A study of Mus musculus with 2 samples.

Results

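Prostate fibroblasts were picked out of a single-cell RNA profile of mouse prostate tumour tissue. A cell was taken as a fibroblast when at least 3 of the 6 matrix genes Col1a1, Col1a2, Col3a1, Dcn, Lum and Apod had a value of 1 or more on the deposited natural log scale, fewer than 3 of the 6 contractile genes Acta2, Myh11, Tagln, Cnn1, Des and Actg2 did, Epcam and Krt5 were below 1, and Ptprc was at 0. The rule found 359 fibroblasts among 15742 cells. The series holds 2 samples, 1 of high-grade prostatic intraepithelial neoplasia (PIN) from mice of 6 months and 1 of prostatic adenocarcinoma (PCa) from mice of 12 months. Both carried the genotype R26 mTmG/hAR:Osr1 Cre/+ on a mixed background of C57BL/6 and 129S1/SvImJ, so every group has the transgene and no wild-type prostate was profiled. In these mice Cre, made where the Osr1 gene is active in the early urogenital sinus, switches on a transgene (hARtg) and a membrane green fluorescent protein (mGFP) in prostate cells and their descendants. The tissue was dissociated with enzymes and loaded for droplet-based 3' sequencing with unique molecular identifiers (UMIs), and the number of animals behind each library was not given in the sources used here. Each barcode ends in _1 or _2, called set 1 and set 2 below. No label ties either ending to PIN or PCa, so the comparison is between sets and not between the lesions.

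Fibroblasts build and remodel the connective tissue around the prostatic glands. They secrete collagens and proteoglycans, and they signal to the epithelium through insulin-like growth factor 1 (IGF1), Wnt ligands and their secreted antagonists, and bone morphogenetic proteins (BMPs). They also answer interferons by making chemokines that attract T cells. Subtypes in many organs include cells beside the epithelium rich in Wnt antagonists, adventitial cells around vessels, matrix-producing cells and inflammatory cells, and pericytes, the contractile cells on capillaries, share many genes with them.

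Set 1 held 107 fibroblasts of 6332 cells, a share of 1.69% (95% Clopper-Pearson interval 1.39 to 2.04%). Set 2 held 252 of 9410 cells, or 2.68% (2.36 to 3.02%). The shares were 0.726% and 0.723% without cells that hold a UMI of Epcam, Krt5 or Krt8, and 1.69% and 1.72% with the 3 clusters found in both sets. Both choices take more cells from set 2. Krt8 was seen in 49.5% of the fibroblasts of set 1 and 73.0% of those of set 2, and the clusters left out held cells of set 2 only. The near-equal shares thus follow in part from the choices and do not decide whether the gap is real. The median depth of the fibroblasts was 6643 UMIs in set 1 and 4692.5 UMIs in set 2, and their summed UMIs were 810343 and 1409238. All intervals here cover counting error only, and with 1 library per set no difference has a replicate check. The rule is easier to pass in a shallow cell, because a single UMI reaches a value of 1 in cells under 5820 UMIs. This applied to 43.0% of the fibroblasts of set 1 and 71.0% of those of set 2. Just inside the rule, with 3 matrix genes, were 27 and 86 cells, and just outside it, with 2 matrix genes and all other conditions met, were 15 and 81 cells. No barcode was shared between a fibroblast of set 1 and a fibroblast of set 2, although 67 barcodes occurred in both sets over all cells. A doublet score of 0.25 or more was seen in 0 fibroblasts of set 1 and 2 of set 2.

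The chosen cells carried the genes of fibroblasts, as the rule fixes for the 6 matrix genes. Against all other cells, and as a description of cells picked on such genes, the leading genes were Apod, Bgn, Mgp, Igfbp6, Igfbp4, Serping1, Igfbp5, Col1a2, Ccl2, Col1a1, Fbln1, Cygb, Mmp2, Nbl1 and Penk. Of these, Bgn (biglycan, a small proteoglycan of the matrix) stood at 5222 CPM, that is 5222 UMIs in every 1000000 UMIs, in fibroblasts of set 1 and at 31.7 CPM in all other cells of that set, and at 4046 against 21.8 CPM in set 2. Penk, the precursor of the enkephalin peptides, stood at 1640.05 against 32.9 CPM in set 1 and 1215 against 8.45 CPM in set 2. Summed over the 7 fixed fibroblast markers the level was 16541 CPM in set 1 and 15137 CPM in set 2, and no marker was at 0. Col1a1, Dcn, Apod and Lum of this list belong to the rule, so the choice of cells fixed the sum in large part. The 7 leukocyte markers, of which the rule set Ptprc to 0, summed to 23.4 and 234 CPM. A single cell of set 2 held 86.4% of the UMIs of Lyz2, a macrophage gene. The 7 endothelial markers summed to 128 and 244 CPM and the 6 glial markers to 1.23 and 2.13 CPM. The 7 luminal markers summed to 385 and 1839 CPM in fibroblasts, beside 513 and 1749 CPM in leukocytes of the same sets. Epcam, a member of this list, was held below 1 in both cell types by their rules. The 6 pericyte markers summed to 43.2 CPM with 2 of them at 0 in set 1, and to 2459 CPM with none at 0 in set 2.

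To describe subtypes, the 359 cells were clustered after each gene was centred within its set, without the genes of the rule, the transgene and the reporter. There were 5 clusters. Cluster 1 held 56 cells of set 1 and 64 of set 2, cluster 2 held 11 and 51, and cluster 3 held 40 and 47. Clusters 4 and 5 held 0 cells of set 1 and 45 cells of set 2 each, and 0 of 107 cells allows a share of up to 2.80%. The leading genes of these clusters also differed between the sets, so the sizes are given as a description and were not compared. With 1 library per set, a cluster seen in 1 set may mark that library rather than a type. Cluster 1 also depends on the centring. Without it, the best match of cluster 1 held 0 cells of set 1 and 56 of set 2. Ratios between the sets within cluster 1 below carry this limit.

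**Figure D1:**
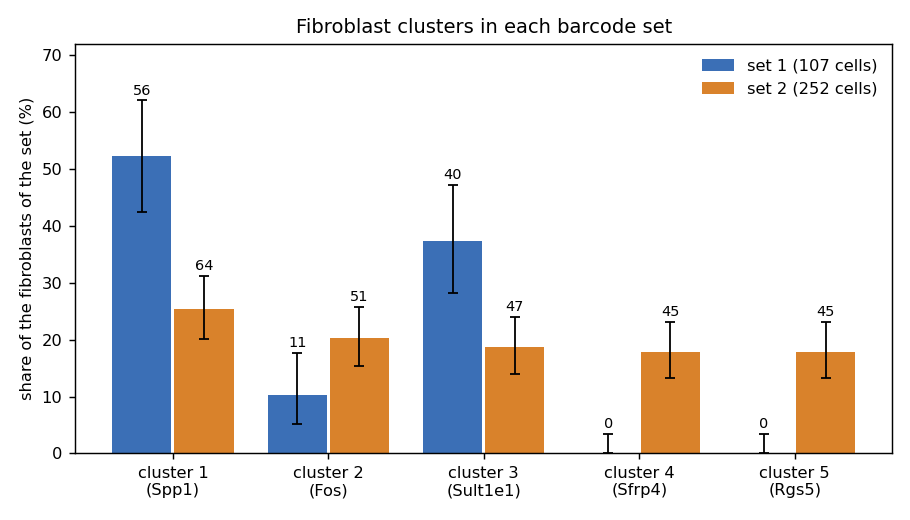
The bars give the share (%) of each set's fibroblasts that fell into clusters 1 to 5, for set 1 (107 cells) and set 2 (252 cells), with exact 95% Clopper-Pearson intervals for counting error and the cell number above each bar; the gene in brackets is among the 8 that led the cluster. Clusters 1 to 3 hold cells of both sets, and clusters 4 and 5 hold 45 cells each of set 2 and 0 of set 1.

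Cluster 1 was led by Spp1, Tnfrsf11b, Col10a1, Pmaip1, Mmp13, Notum, Serpina1b and Serpina3f, but several of these rest on few cells. Spp1 UMIs came from 5 cells, Serpina1b UMIs from 4 cells, and Col10a1 and Mmp13 UMIs from 1 cell each. The broadly seen members were Notum, a secreted enzyme that inactivates Wnt proteins, with UMIs in 71 cells, Pmaip1, a pro-apoptotic gene, in 47 cells, and Tnfrsf11b, which encodes osteoprotegerin, in 31 cells. Notum stood at 192 CPM in set 1 and 263 CPM in set 2 within cluster 1, beside 0 and 19.2 CPM in cluster 3.

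Some Wnt and BMP genes were higher in clusters 1 and 2 than in cluster 3, and cluster 4 of set 2 held part of them as well. Wif1, which encodes a secreted Wnt inhibitor, stood at 2743 and 3162 CPM in cluster 1 and at 5151 and 2701 CPM in cluster 2 (sets 1 and 2), against 0 and 28.9 CPM in cluster 3 and 14.5 CPM in cluster 4. The ligand Wnt2 stood at 457 and 275 CPM in cluster 1, 409 and 448 CPM in cluster 2 and 4.32 and 24.04 CPM in cluster 3. Cluster 4 had 315 CPM of Wnt2, above cluster 1 of the same set. Thy1, a surface glycoprotein used to sort stromal cells, was likewise lowest in cluster 3, at 520.1 and 593 CPM in cluster 1, 872 and 621 CPM in cluster 2 and 8.65 and 28.9 CPM in cluster 3, with 265 CPM in cluster 4. The ligand Bmp2 stood at 231 and 422 CPM in cluster 1, 491 and 269.6 CPM in cluster 2 and at 34.6 and 43.3 CPM in cluster 3, with 7.25 CPM in cluster 4. Nbl1, a BMP antagonist, stood at 6382 and 5481 CPM in cluster 1, 4156 and 6527 CPM in cluster 2 and at 1319 and 1164 CPM in cluster 3, with 3586 CPM in cluster 4. For each of these 5 genes both sets gave the higher level to clusters 1 and 2 than to cluster 3. Other members of the Wnt and the TGF-beta and BMP lists went the other way. Over both sets, the Wnt antagonist Sfrp1 stood at 99.6, 126 and 938 CPM in clusters 1, 2 and 3. Fst stood at 397, 137 and 1197 CPM, and Tgfb2 and Gdf10 were likewise highest in cluster 3 of these clusters.

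Cluster 2 was led by Fos, Socs3, Nrg2, Zfp36, Rasl11a, Irf1, Bmp4 and Ccnd3. Fos and Zfp36 are immediate early genes, which cells switch on within minutes of a stimulus, tissue dissociation included. Fos stood at 8544 CPM in set 1 and 8618 CPM in set 2 in cluster 2, against 2102 and 287 CPM in cluster 1. Over both sets it stood at 2818 CPM in cluster 3 and 3636 CPM in cluster 4. Jun, Junb and Egr1, also immediate early genes, were highest in cluster 2 as well. Fosb, another, was higher in cluster 4, at 3408 CPM beside 2148 CPM in cluster 2. Socs3, a feedback inhibitor of cytokine receptors, stood at 2098 and 1989 CPM, against 647 and 113 CPM in cluster 1. The ligand Bmp4 stood at 218 and 178 CPM in cluster 2, against 109 and 45.8 CPM in cluster 1. The cells of cluster 2 had a median of 7329 UMIs in set 1 and 3483 UMIs in set 2, and the part of dissociation in this group was not tested.

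Cluster 3 was led by Sult1e1, Jchain, Myoc, Cxcl13, Lum, Gpx3, Epyc and Inmt. Jchain is a plasma cell gene, and 99.6% of its UMIs in the cluster came from 1 cell of set 2. Sult1e1, the enzyme that inactivates oestrogens by sulphation, stood at 506 CPM in set 1 and 442 CPM in set 2, against 0 and 15.3 CPM in cluster 1. Lum (lumican, a small proteoglycan) stood at 2010.3 and 2053 CPM, against 49.4 and 30.6 CPM in cluster 1. Apod, an apolipoprotein, stood at 6087 and 17735 CPM, against 1609.8 and 1323 CPM in cluster 1. Lum and Apod belong to the rule, which was kept out of the clustering features, yet these levels still describe cells chosen with them. Complement C3 stood at 2265 and 1491 CPM in cluster 3, against 198 and 18.3 CPM in cluster 1, and cluster 4 of set 2 had a like level of 1534 CPM. Dpt and Clec3b, markers of adventitial fibroblasts, stood at 298 and 447 CPM and at 173 and 351 CPM in cluster 3, against 39.6 and 6.11 CPM and 13.8 and 0 CPM in cluster 1. Of the 8 fixed adventitial markers, 6 were seen in at least 25% of the cells of cluster 3 and 4 in clusters 1, 2 and 4.

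Cluster 4, found in set 2, had Wisp2, Ltbp2, Chil1, 1500015O10Rik, Sfrp4, Fmod and Ddah1 among its leading genes. Sfrp4, a secreted Wnt antagonist, stood at 1363 CPM in cluster 4 and at 3.06, 5.09, 159 and 9.96 CPM in clusters 1, 2, 3 and 5 of set 2. Ltbp2, which binds microfibrils, stood at 1211 CPM against 48.9 CPM in cluster 1. Fmod (fibromodulin) stood at 551 CPM against 6.11 CPM, Igfbp4, an IGF-binding protein, at 10169.8 CPM against 1069 CPM, and Timp3, an inhibitor of matrix proteases, at 4064 CPM against 513 CPM. Of the set 2 clusters, cluster 4 had the highest levels of Col1a1, at 2962 CPM against 1088 CPM in cluster 1, of Col1a2, at 3941 CPM against 769.9 CPM, and of Col3a1, at 2484 CPM against 727 CPM. Another fibrillar collagen, Col5a3, was highest in cluster 5, at 540.4 CPM beside 18.1 CPM in cluster 4. Pi16, a marker of adventitial fibroblasts, stood at 2447 CPM against 122 CPM in cluster 1. Other adventitial markers did not all follow. Beside cluster 3 over both sets, Dpt stood at 14.5 against 369 CPM, Clec3b at 65.3 against 257 CPM and Cd34 at 54.4 against 262 CPM. Ly6a, Ly6c1 and Sema3c were also lower in cluster 4 than in cluster 3, and Dpp4 was higher, at 32.6 against 15.9 CPM. Cthrc1, a marker of activated matrix-producing fibroblasts, was seen at 334 CPM in 23 of the 45 cells. Acta2, which encodes smooth muscle actin and is held down by the rule, was at 181 CPM. Over both sets it was at 101, 74.1, 150 and 187 CPM in clusters 1, 2, 3 and 5. Of the 8 fixed myofibroblast markers, 5 were seen in at least 25% of the cells of cluster 4, as in cluster 5.

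Cluster 5, also found in set 2, went against the label of fibroblast. It was led by Rgs5, Klk8, Fabp7, Higd1b, Ndufa4l2, Emid1, Col18a1 and Cox4i2. Rgs5, the best known gene of pericytes, stood at 7147 CPM, and in the other fibroblasts of set 2 at 0.992 CPM. All 6 fixed pericyte markers were seen in at least 25% of its cells, with Higd1b at 301 CPM, Notch3 at 222 CPM, Kcnj8 at 252 CPM, Abcc9 at 378 CPM and Cspg4 at 239 CPM. These cells are called pericyte-like below. Pdgfra, at 27.4 CPM, and Dcn, at 1128 CPM, were lower there than in cluster 1 of set 2, at 165 and 6538 CPM. Col1a1, Col3a1 and Lum, which belong to the rule, were not, at 1198 against 1088 CPM, 752 against 727 CPM and 97.1 against 30.6 CPM. The markers Apod, Igfbp6 and Penk stood at 244, 127 and 172 CPM. In cluster 1 over both sets they stood at 1497, 1265 and 1692 CPM. Of the 7 fixed fibroblast markers, 3 were seen in at least 25% of the cells of cluster 5 and 6 in cluster 1. Basement membrane collagens were high, with Col4a1 at 2998 CPM against 241 CPM in cluster 1. Contractile genes stayed under the limit of the rule, with Acta2 at 187 CPM beside 3145 CPM in cells of the same set with 3 or more contractile genes. Rgs5 stood at 4413 CPM in those contractile cells of set 2 and at 17.2 CPM in those of set 1. The luminal keratin Krt8 stood at 1975 CPM in cluster 5, against 203 to 331 CPM in the other clusters of set 2, and 6 of the 7 luminal markers were seen in at least 25% of the cells. The share of cells with Krt8 was not set apart. After every cell was thinned to 3000 UMIs it was 55.0%, beside 50.8, 59.0, 57.1 and 47.1% in clusters 1 to 4 of set 2. Over all fibroblasts of set 2, 5 cells held 55.8% of the Krt8 UMIs.

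**Figure D2:**
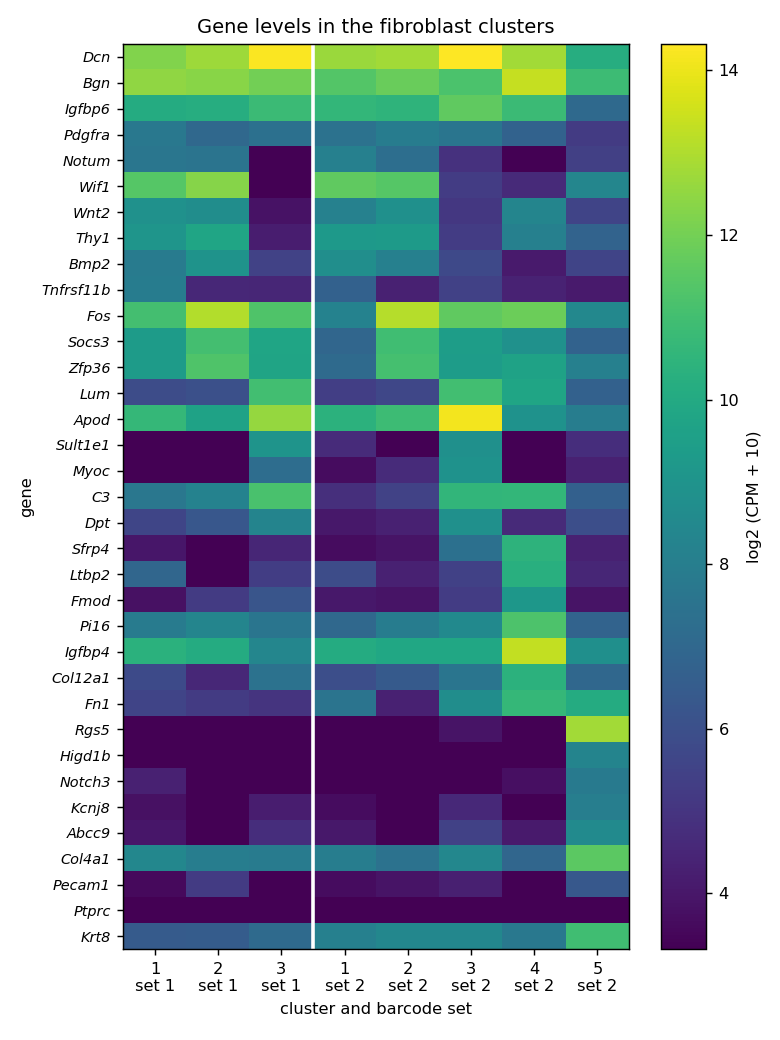
Each square gives the level of a gene (rows) as log2(CPM + 10) in a cluster and barcode set (columns), from UMIs summed over the cells; the white line divides set 1 from set 2. The Wif1, Wnt2 and Thy1 rows are bright in clusters 1 and 2 of both sets, and of these Wnt2 and Thy1 also stand at 315 and 265 CPM in cluster 4. The Sult1e1 and Lum rows are bright in cluster 3 of both sets (Lum also in cluster 4, at 877 CPM), the Sfrp4, Ltbp2 and Fmod rows in cluster 4, and the Rgs5 and Higd1b rows in cluster 5.

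Set 2 was then compared with set 1 over all fibroblasts. Ratios across many genes are log2((CPM + 10)/(CPM + 10)) of set 2 to set 1, taken for genes with a mean of 50 CPM or more over the sets (called measured below), and a gene counts as past the limit at a ratio of 1 or more, or -1 or less, a difference of 2 times. Of 2875 genes, 128 (4.45%) were higher in set 2 and 114 (3.97%) were lower, and the median ratio was 0.07. Among the 415 genes with at least 4 times the level of leukocytes and of luminal cells, 51 (12.3%) were higher and 62 (14.9%) lower, with a median of -0.23. Since clusters 4 and 5 were absent from set 1, the counts of most gene lists below are also given for clusters 1 to 3, in which 55 of 2755 genes (2%) were higher in set 2 and 121 (4.39%) were lower, with a median of 0.02. Without the pericyte-like cluster alone, 3.11% of 2796 genes were higher and 3.54% were lower. Within clusters 1, 2 and 3, 3.86, 7.08 and 7.06% of the genes were higher in set 2, and 6.39, 10.7 and 7.25% were lower.

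**Figure D3:**
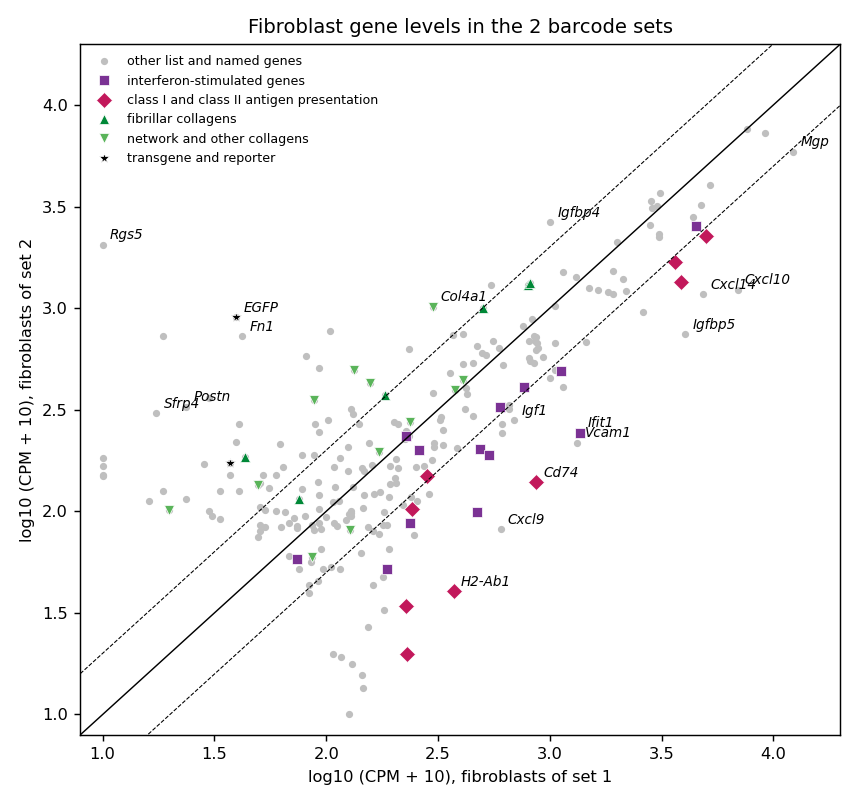
Each point is a gene of the fixed lists or a named gene with a mean of 50 CPM or more, with its level as log10(CPM + 10) in all fibroblasts of set 1 (horizontal axis) and set 2 (vertical axis); the solid line marks equal levels and the dashed lines a difference of 2 times. Interferon-stimulated and antigen presentation genes lie on or below the line of equal levels, apart from Irf7, and Rgs5, Fn1, Sfrp4, Postn and the reporter lie far above it.

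Many interferon-stimulated genes were lower in set 2. Of 14 fixed genes 13 were measured, 7 were lower in set 2 and 0 were higher, with a median ratio of -1.20. In clusters 1 to 3, 9 of 12 were lower, with a median of -1.64. Cxcl10, an interferon-induced chemokine for T cells that was counted with the cytokines, stood at 6909 CPM (6729.6 to 7093) in set 1 and 1219 CPM (1162 to 1278) in set 2. It was seen in 82.2% and 49.6% of the cells, and after thinning every cell to 3000 UMIs in 79.6% and 48.3%. Leukocytes showed Cxcl10 in 12.8% and 18.2% of thinned cells, so the fibroblast shares were above the share in those cells in both sets. Ifit1, which encodes an RNA-binding antiviral protein, stood at 1359.9 CPM (1281 to 1443) in set 1 and 233 CPM (209 to 260.1) in set 2. Ifit3 stood at 463 and 89.4 CPM, Gbp2, a guanylate-binding protein, at 523 and 180.2 CPM, Isg15, a ubiquitin-like protein, at 1109 and 478 CPM, and Rsad2, the antiviral enzyme viperin, at 227 and 77.3 CPM. Irf7, a transcription factor of the response, stood at 217 and 226 CPM, Ifi27 at 251 and 191 CPM and Gbp7 at 64.2 and 48.3 CPM, all within the limit. In clusters 1 to 3 the ratio of Irf7 was -1.14 and that of Gbp7 -1.65.

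Cxcl10 and Ifit1 were lower in set 2 in each of the clusters found in both sets after centring within sets, by unequal amounts. Cxcl10 stood at 7244 CPM in set 1 and 2093 CPM in set 2 in cluster 1, at 7276 and 3154 CPM in cluster 2, and at 6061 and 346 CPM in cluster 3. The log2 ratio of CPM was -1.79 (-1.91 to -1.67) in cluster 1, -1.21 (-1.38 to -1.04) in cluster 2 and -4.13 (-4.49 to -3.79) in cluster 3. Ifit1 stood at 1584 and 309 CPM in cluster 1, at 627 and 30.5 CPM in cluster 2 and at 1102 and 9.62 CPM in cluster 3. In cluster 3, 11 of 12 measured interferon-stimulated genes were past the limit, beside 7.25% of 2606 genes, and in cluster 1, 7 of 12 were, beside 6.39% of 2800 genes. Within set 2, Ifit1 stood at 548 CPM in the pericyte-like cluster and at 9.62 and 0 CPM in clusters 3 and 4, and Irf7 at 605, 33.7 and 25.4 CPM. Ifi27 went the other way, at 137, 236 and 214 CPM. Smooth muscle and mural cells, many of which also pass for matrix genes, had Cxcl10 at 7389 CPM in set 1 and 742 CPM in set 2, and after thinning it was seen in 82.1% and 38.5% of them, beside 79.6% and 48.3% of the fibroblasts. It stood at 353 and 336 CPM in leukocytes, 758 and 394 CPM in endothelial cells and 178 and 54.5 CPM in luminal cells, and Irf7 at 61.3 and 410.3 CPM in leukocytes. Whether the ratios of the cell types differ was not tested.

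Promoters of some of these genes are shown as a description, because interferon acts on many genes through a known motif, the interferon-stimulated response element. The 250 bases before the start of each gene in RefSeq (build GRCm38.p6, the mm10 assembly) were searched on both strands for GAAANNGAAA, where N is any base. Of the 14 interferon-stimulated genes 11 had a window and 7 of them held the motif (63.6%), as did 936 of 27025 genes overall (3.46%). The list was fixed as interferon-stimulated, so this share describes the list and not the difference between the sets. Of the antigen presentation genes 8 had a window and 1 held the motif (12.5%). Another motif that was searched, TTCNNNGAA, was held by 36.4% of the interferon-stimulated genes with a window and 8.13% of genes overall. Below are stretches before the start in which capitals mark the motif, read 5′ to 3′ on the strand of the gene, so that the reverse complement, TTTCNNTTTC, is the same motif on the other strand.
Ifit1 (chr19:34640775-34640873, plus strand): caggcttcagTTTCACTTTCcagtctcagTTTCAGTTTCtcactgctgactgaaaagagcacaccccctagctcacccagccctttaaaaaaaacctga
Ifit3 (chr19:34583363-34583476, plus strand): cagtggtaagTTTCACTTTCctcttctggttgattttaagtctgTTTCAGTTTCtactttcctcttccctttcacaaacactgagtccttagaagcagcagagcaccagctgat
Gbp2 (chr3:142620594-142620662, plus strand): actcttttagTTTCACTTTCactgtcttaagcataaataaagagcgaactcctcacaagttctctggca
Cxcl10 (chr5:92349033-92349112, minus strand): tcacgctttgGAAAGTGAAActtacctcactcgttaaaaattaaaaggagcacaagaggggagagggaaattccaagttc
The windows of Ifit1 and Ifit3 held 2 copies each and those of Gbp2 and Cxcl10 held 1. A match is a description of the letters in the window and not a measured binding site.

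Antigen presentation genes were lower in set 2 as a group. Of 11 fixed genes 9 were measured and 8 were lower, with a median of -1.53, and in clusters 1 to 3 all 9 measured were, with a median of -1.60. H2-K1, a class I heavy chain, stood at 3865 CPM (3731 to 4003) in set 1 and 1328 CPM (1268 to 1389) in set 2, and it was seen in 100% and 96.0% of the cells. In cluster 1 it stood at 4212 and 1454 CPM, in cluster 2 at 1853 and 869.9 CPM and in cluster 3 at 3744 and 1366 CPM. B2m, the light chain of class I, stood at 3624 and 1681 CPM, and Tap1, the peptide transporter, at 231 and 92.2 CPM. Leukocytes had H2-K1 at 4787 and 3424 CPM and luminal cells at 6643 and 408 CPM, so H2-K1 was lower in set 2 in these cells too.

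The class II genes need more care. Cd74, the invariant chain, stood at 855 CPM (793 to 921) in set 1 and 129 CPM (111 to 149) in set 2, and H2-Ab1 at 362 and 30.5 CPM. Cd74 was seen in 51.4% of the fibroblasts of set 1 and 4.76% of those of set 2. In set 2, H2-Eb1 came from 0.794% of the cells, and 78.6% of its UMIs lay in 1 cell. Within set 1, cluster 3 had the highest Cd74, at 1388 CPM, beside 722 CPM in cluster 1 and 95.4 CPM in cluster 2. Among other cells of set 1, Cd74 stood at 3763 CPM in luminal cells and 4627 CPM in endothelial cells, and in set 2 at 16.0 and 17.7 CPM. Leukocytes had 6034 and 9887 CPM. Set 1 held 724 leukocytes and 3144 luminal cells, and set 2 held 134 and 6392. The part of free RNA from leukocytes, luminal cells or endothelial cells in the fibroblast values was not tested. In fibroblasts of set 1 the leukocyte markers summed to 23.4 CPM, with 3 of 7 at 0, and the luminal markers to 385 CPM. The rule itself set the leukocyte marker Ptprc to 0 and held the luminal marker Epcam below 1. These sums therefore do not decide that question. Slpi, the other marker of the antigen-presenting fibroblast list, was at 1.23 CPM there.

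Chemokines and cytokines split by gene and by cluster. Of 21 fixed genes 16 were measured, 5 were lower in set 2 and 1 was higher, with a median of -0.67, and in clusters 1 to 3, 8 were lower and 1 was higher. Cxcl9, a second interferon-induced chemokine for T cells, stood at 592 CPM (540.5 to 648) in set 1 and 71.7 CPM (58.4 to 87.1) in set 2. Cxcl14, a chemokine made by many epithelia and fibroblasts, stood at 4834 CPM (4684 to 4988) and 1164 CPM (1108 to 1221). Its log2 ratio of CPM was -2.27 (-2.41 to -2.13) in cluster 1, -0.43 (-0.71 to -0.16) in cluster 2 and -2.58 (-3.13 to -2.07) in cluster 3. Il34, a ligand of the macrophage growth factor receptor, stood at 181 and 55.3 CPM. Cxcl13, a chemokine for B cells, stood at 170.3 and 37.6 CPM, and within cluster 3 its UMIs came from 10 cells. Ccl11, the eosinophil chemokine eotaxin, was the member higher in set 2, at 13.6 and 105 CPM, and stood at 17.3 and 313 CPM in cluster 3. Ccl2, a monocyte chemokine and one of the leading fibroblast genes, stood at 1813 and 1188 CPM and was within the limit. Il6 pointed different ways in different clusters, at 107 CPM in set 1 and 45.8 CPM in set 2 in cluster 1 and at 264 and 577 CPM in cluster 3. Il6 and Cxcl1 of set 2 were highest in cluster 3, with Cxcl1 at 2779 CPM there and 547 CPM in cluster 1.

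Vcam1, an adhesion molecule for leukocytes and one of the lowest genes of set 2 among fibroblast-enriched genes, stood at 1318 CPM (1240.1 to 1399) in set 1 and 208 CPM (185 to 233) in set 2. In cluster 1 it stood at 1438 and 137 CPM and in cluster 3 at 1435 and 414 CPM. Among complement genes, 2 of 7 measured were lower in set 2 and 1 was higher, with a median of -0.51. Of the 6 measured in clusters 1 to 3, 2 were lower and 0 higher, and without the pericyte-like cluster alone 0 of 6 were past the limit. C4b stood at 278 and 111 CPM, C2 at 229.5 and 108 CPM, and C3 at 796 and 556 CPM. C7, a component of the membrane attack complex, was below the mean of 50 CPM, at 81.4 CPM in set 1 and 4.97 CPM in set 2.

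The IGF group held one ligand that was lower in set 2. Igf1, the growth factor that fibroblasts supply to the epithelium, stood at 681 CPM (626 to 740.5) in set 1 and 270.4 CPM (244 to 299) in set 2. It was seen in 68.2% and 54.0% of the cells, and in 55.1% and 43.1% after thinning to 3000 UMIs. Within clusters it stood at 392 and 299 CPM in cluster 1, at 967 and 244 CPM in cluster 2 and at 1223 and 370.3 CPM in cluster 3. The log2 ratios of CPM were -0.39 (-0.75 to -0.03), -1.99 (-2.55 to -1.44) and -1.72 (-2.11 to -1.36). Cluster 4 of set 2 had 515 CPM and the pericyte-like cluster 39.8 CPM. Outside fibroblasts, Igf1 stood at 9.29 and 151 CPM in leukocytes, at 371 and 93.1 CPM in smooth muscle and mural cells and at 1.21 and 1.08 CPM in luminal cells. Igf2 had 0 CPM in set 1 and 1.42 CPM in set 2. The receptor Igf1r stood at 40.7 and 69.5 CPM.

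The IGF-binding proteins differed from each other. Igfbp5 stood at 4030.4 CPM (3893 to 4171) in set 1 and 736 CPM (692 to 782) in set 2. It was lower in set 2 in cluster 1, at 5573 and 1182 CPM, and in cluster 2, at 3597 and 911 CPM, but stood at 795 and 1279 CPM in cluster 3, where it was seen in 57.5% and 34.0% of the cells. Igfbp4 stood at 997 and 2631 CPM, and without the cells of clusters 4 and 5 its ratio was -0.00, and cluster 4 held 10169.8 CPM. Igfbp6 stood at 1295 and 1406 CPM and Igfbp7 at 7639 and 7604 CPM. Within clusters 1 to 3 the ratio of Igfbp7 was -1.16, and its level in clusters 4 and 5 was 14223 and 10700.1 CPM. Of the 10 genes of the list, 8 were measured, 1 was higher and 2 lower, and in clusters 1 to 3, 0 were higher and 3 lower.

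Of 22 Wnt ligands, R-spondins and secreted modulators 10 were measured, 2 were higher in set 2 (Sfrp4 and Dkk3) and 3 were lower (Rspo3, Wnt11 and Dkk2), and in clusters 1 to 3, 1 was higher and 1 lower. Wif1 stood at 2178 and 1211 CPM over all fibroblasts, and its ratio in clusters 1 to 3 was -0.02. Sfrp1, another secreted antagonist, stood at 464 and 639 CPM over all fibroblasts, at 1245 and 596 CPM in cluster 3 and at 2585 CPM in cluster 4. Sfrp4 stood at 7.40 CPM (2.72 to 16.1) in set 1 and 294 CPM (267 to 324) in set 2, and the UMIs of set 1 came from 2.80% of the cells. Rspo3, which strengthens Wnt signals, stood at 163 and 67.4 CPM, and in cluster 1 at 83.1 and 79.4 CPM. Of the 14 Wnt target genes 4 were measured in fibroblasts and 0 were past the limit, although 1 of 4 was lower in clusters 1 to 3, with Axin2 at 8.64 and 26.3 CPM in fibroblasts and at 21.3 and 167 CPM in luminal cells. Lgr5 stood at 6.17 and 9.22 CPM in fibroblasts.

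Among TGF-beta and BMP genes, 3 of 11 measured were higher in set 2 and 2 were lower. The ligand Tgfb2 stood at 51.8 and 205 CPM and Ltbp2 at 79.0 and 258 CPM, both with their highest level in cluster 4. Fstl1, a secreted follistatin-like protein, stood at 360.3 and 731 CPM. Bmp4 stood at 105 and 41.9 CPM and Gdf10, a BMP family ligand, at 74.0 and 29.8 CPM. Fst (follistatin, which traps activins) stood at 647 and 324 CPM, just inside the limit, and Nbl1 at 4735 and 3203 CPM. In clusters 1 to 3, 0 genes of this list were higher and 2 were lower. The EGF family ligand Nrg1 stood at 95.02 and 43.3 CPM. Of the growth factor ligands of the FGF, HGF and EGF families 2 of 11 were measured, with 0 past the limit over all fibroblasts and both lower in clusters 1 to 3. Fgf7 and Fgf10, fibroblast growth factors of the prostate mesenchyme, were low, at 37.0 and 27.7 CPM and at 14.8 and 11.4 CPM.

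Some collagens were higher in set 2 over all fibroblasts, and none of them was past the limit upward in clusters 1 to 3. Of 8 fibrillar collagen genes 6 were measured, 2 were higher and 0 lower, with a median of 0.85. Col1a1 and Col3a1 belong to the rule, and they stood at 789.8 and 1292 CPM and at 495 and 996 CPM. In clusters 1 to 3, 0 of 5 were past the limit and the median was 0.10, but within cluster 2, 4 of 5 were lower, with a median of -1.25. Col1a1 stood at 833 and 1088 CPM in cluster 1, at 886 and 366 CPM in cluster 2 and at 666 and 457 CPM in cluster 3, so its direction differed between the clusters. Of 12 network and other collagens, 6 were higher and 0 lower, with a median of 0.83, and in clusters 1 to 3, 0 of 10 were higher and 1 was lower, with a median of -0.25. Col4a1 stood at 291 and 1005 CPM over all, and at 241, 168 and 332 CPM in clusters 1, 2 and 3 of set 2. Col12a1 stood at 77.7 and 345 CPM over all, and at 1338 CPM in cluster 4.

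Among matrix glycoproteins, 7 of 22 measured were higher and 3 were lower, and in clusters 1 to 3, 3 were higher and 1 was lower. Fn1 (fibronectin) stood at 32.1 CPM (21.0 to 47.0) in set 1 and 716 CPM (672 to 762) in set 2. It was at 1581 CPM in cluster 4 and 1066 CPM in cluster 5, and in cluster 3 at 21.6 and 404 CPM in the 2 sets, seen in 10.0% and 38.3% of the cells. In set 1, 57.7% of the Fn1 UMIs lay in 1 cell. Postn (periostin) stood at 13.6 and 316 CPM over all fibroblasts. Its level of 342 CPM in cluster 1 of set 2 came from 1.56% of the cells, and it was highest in cluster 5, at 709.7 CPM. Fbn1 (fibrillin) stood at 91.3 and 271 CPM, and in cluster 3 at 60.5 and 250.1 CPM. Lower in set 2 were Mgp, an inhibitor of calcification, at 12242 and 5869 CPM, Sparcl1 at 1449 and 671 CPM, and Mfap4, a microfibril protein, at 603 and 258 CPM. Mgp was lower in each shared cluster, with log2 ratios of CPM of -0.80 (-0.86 to -0.74), -0.70 (-0.82 to -0.59) and -0.75 (-0.89 to -0.62). Efemp1, a fibulin, went the other way in each, at 520.1 and 1039 CPM in cluster 1, 695 and 1226 CPM in cluster 2 and 419 and 668 CPM in cluster 3, and so did Ltbp4 at 524 and 935, 749 and 1159.9, and 540.4 and 1068 CPM.

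Of 14 measured matrix-modifying enzymes, 3 were higher and 1 was lower, and in clusters 1 to 3, 1 was higher and 1 lower. Mmp3 (stromelysin) stood at 30.9 CPM in set 1 and 260.4 CPM in set 2, seen in 3.74% and 14.3% of the cells, with the highest level in cluster 4, at 624 CPM. Pcolce, which speeds the maturation of collagen, was lower, at 1043 and 485 CPM, and was lower in clusters 1, 2 and 3 alike, at 1058 and 419, 1158 and 595, and 973 and 702 CPM. Mmp2 (gelatinase A) stood at 851 and 678 CPM. Among proteoglycans Bgn was within the limit over all fibroblasts and stood at 5769 and 2679 CPM in cluster 1, 5301 and 3592 CPM in cluster 2 and 4003 and 2361 CPM in cluster 3. Dcn (decorin), a gene of the rule, stood at 9209.7 and 7239 CPM over all and at 4881 and 6538 CPM in cluster 1.

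**Figure D4:**
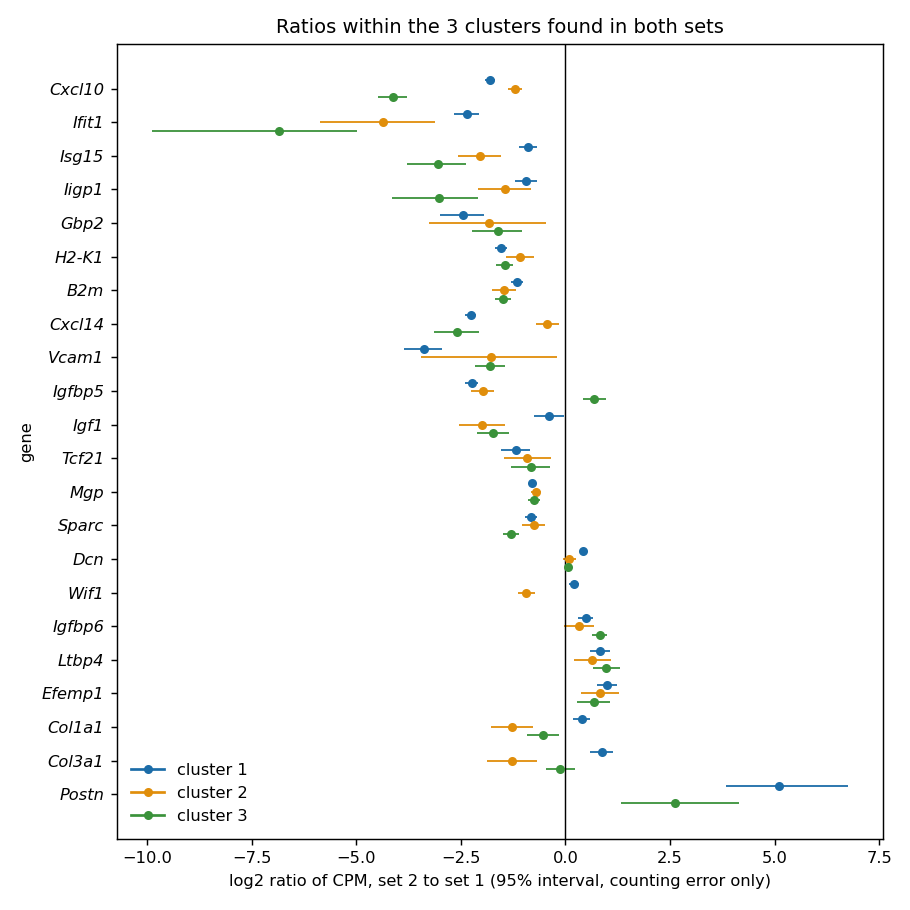
Points give the log2 ratio of CPM of set 2 to set 1 for selected genes (rows) within clusters 1, 2 and 3, with 95% intervals for counting error, and the vertical line marks equal levels; no point is drawn where a cluster had 0 UMIs in a set or too few for a ratio. The interferon and class I genes and Mgp lie to the left in all 3 clusters, Ltbp4 and Efemp1 lie to the right in all 3, and Igfbp5, Col1a1 and Col3a1 lie on different sides.

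Contractile genes are held down by the rule, which used 6 of them, Tagln included. Of 15 fixed contractile and myofibroblast genes 8 were measured, 2 were lower and 0 higher, and these were Tagln, at 645 and 308 CPM, and Myl9, at 236 and 66.7 CPM, both proteins of actin filaments and their motors. Of the 7 measured in clusters 1 to 3, 3 were lower and 0 higher. In cluster 1 Tagln stood at 609 and 45.8 CPM, whereas cluster 4 had 827 CPM. Of the activated fibroblast genes, Fap stood at 16.0 and 12.1 CPM, Itga11 at 1.23 and 2.13 CPM and Lrrc15 at 1.23 and 1.42 CPM, and Cthrc1 was at 0 CPM in set 1.

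Transcription factors of the urogenital mesenchyme were mostly within the limit, with 2 of 12 measured lower in set 2 and 0 higher, and in clusters 1 to 3, 1 of 11 lower and 0 higher. Tcf21 stood at 602 CPM (549.96 to 658) in set 1 and 232 CPM (208 to 259) in set 2, and was lower in clusters 1, 2 and 3, at 631 and 278, 654 and 346, and 523 and 293 CPM. Twist1, a mesenchymal regulator, stood at 244 and 102 CPM. Osr1, whose promoter drives Cre, was nearly absent from the adult fibroblasts, at 8.64 and 4.26 CPM, while its relative Osr2 stood at 112 and 80.9 CPM. Srd5a2, the enzyme that makes dihydrotestosterone, stood at 23.4 and 14.2 CPM.

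Of 12 receptor genes 9 were measured, 2 were higher (Pdgfrb and Eng) and 0 lower. Without the pericyte-like cluster, and likewise in clusters 1 to 3, 0 of 7 were past the limit. Pdgfrb, the receptor for platelet-derived growth factor on pericytes, stood at 49.4 and 141 CPM and reached 396 CPM in cluster 5, while Pdgfra, its counterpart on fibroblasts, stood at 183 and 126 CPM. Of the 9 Hedgehog response genes 1 was measured and within the limit, and Gli1, the usual readout of the pathway, lay below the mean of 50 CPM, at 23.4 and 26.3 CPM. All 15 immediate early and heat shock genes were measured and 0 were past the limit over all fibroblasts or in clusters 1 to 3 together, but 6 were lower in set 2 in cluster 1, where Fos stood at 2102 and 287 CPM and Dusp1 at 635 and 122 CPM. Proliferation genes were low, with Mki67 at 0 CPM in set 1 and 5.68 CPM in set 2, and 1 of 8 proliferation genes, Pcna, was measured, at 64.2 and 72.4 CPM.

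Some genes at the ends of the ranking rest on single cells. Among all genes the 6 highest ratios were those of Rgs5, Jchain, EGFP, Col10a1, Sfrp4 and Fn1, and the 6 lowest those of Serpina1b, H2-Eb1, AA467197, Hp, H2-Ab1 and Cxcl9. In set 2 a single cell held 99.7% of the Jchain UMIs and 92.6% of the Col10a1 UMIs. In set 1 a single cell held 85.3% of the Hp UMIs and 60.6% of the Serpina1b UMIs. Without the cell with most UMIs in each set the ratio of Jchain went from 5.29 to -0.42, that of Col10a1 from 4.19 to 1.20 and that of Hp from -3.20 to -1.15. Among fibroblast-enriched genes the 12 lowest were Serpina1b, Hp, Cxcl9, Vcam1, Col6a5, Ifit3b, Cxcl10, Ifit1, Rbp4, Igfbp5, Ifit3 and Cxcl14, and the 12 highest were Rgs5, Col10a1, Sfrp4, Fn1, Fabp7, Olfml2a, Postn, Ndufa4l2, Stc1, Mmp3, Wisp2 and Meg3. Of the latter, Rgs5, Fabp7, Olfml2a and Ndufa4l2 were led by the pericyte-like cells, and Sfrp4 and Wisp2 by cluster 4. In clusters 1 to 3 the ratio of Wisp2 was -0.76. Meg3, a non-coding RNA, stood at 82.7 and 495 CPM and was higher in set 2 in cluster 1, at 1.98 and 232 CPM, and in cluster 3, at 242 and 741 CPM. Rbp4, the carrier of vitamin A, stood at 172 and 22.7 CPM, and Stc1 (stanniocalcin) at 6.17 and 102 CPM.

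hARtg was read from the feature ARQ and mGFP from the feature EGFP, which the table does not explain. hARtg stood at 27.1 CPM (17.0 to 41.1) in fibroblasts of set 1 and 162 CPM (142 to 185) in those of set 2. Leukocytes, which do not descend from the urogenital sinus, stood at 11.3 CPM (8.24 to 15.1) and 93.3 CPM (75.2 to 115), and luminal cells at 171 and 1446 CPM. In clusters 1 to 4 of set 2 hARtg stood at 33.6, 40.7, 62.5 and 58.0 CPM, all below the leukocyte level of that set, and in the pericyte-like cluster at 451 CPM (387 to 521). mGFP stood at 29.6 CPM (19.0 to 44.1) in fibroblasts and 44.2 CPM (37.9 to 51.2) in leukocytes of set 1, and at 893 CPM (844 to 943) and 654 CPM (605 to 707) in set 2. Within set 2, clusters 1 to 4 held 339, 605, 433 and 199 CPM of mGFP and the pericyte-like cluster 2199 CPM. After thinning to 3000 UMIs, hARtg was seen in 9.18% of the fibroblasts and 1.62% of the leukocytes of set 1, and in 19.1% and 18.2% of those of set 2. The median depth of these thinned cells had been 7284.5 and 4368.5 UMIs in set 1 and 4986 and 7109 UMIs in set 2. mGFP was seen in 11.2% and 10.5% in set 1 and in 61.2% and 58.7% in set 2, and unthinned in 18.7% and 15.5% and in 77.4% and 85.8%. The thinned shares of fibroblasts and leukocytes with mGFP lay within each other's counting intervals in both sets. No difference in these shares was thus detectable at this depth. For hARtg the shares overlapped in this way in set 2 (14.0 to 25.1% and 11.8 to 26.2%) and not in set 1 (4.29 to 16.7% and 0.745 to 3.06%). The intervals of the mGFP CPM of set 2 did not overlap, but they treat each UMI as independent. Clusters 1 to 4 of set 2 all lay below the leukocyte level of 654 CPM, and only the pericyte-like cluster lay above it. The higher mGFP CPM of set 2 fibroblasts therefore does not hold outside that cluster.

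The epithelial keratin Krt8 is given beside these values. Krt8 stood at 93.8 CPM in fibroblasts and 126 CPM in leukocytes of set 1, at 759 and 698 CPM in set 2, and at 1975 CPM in the pericyte-like cluster, where hARtg and mGFP were also highest. In set 1, Krt8 was lower in fibroblasts than in leukocytes, while hARtg was higher. The part of free or engulfed epithelial RNA in the hARtg, mGFP and Krt8 values was not tested. For Krt8, hARtg and mGFP the level in smooth muscle and mural cells of set 2, at 967, 241 and 1594 CPM, likewise lay above that in leukocytes.

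**Figure D5:**
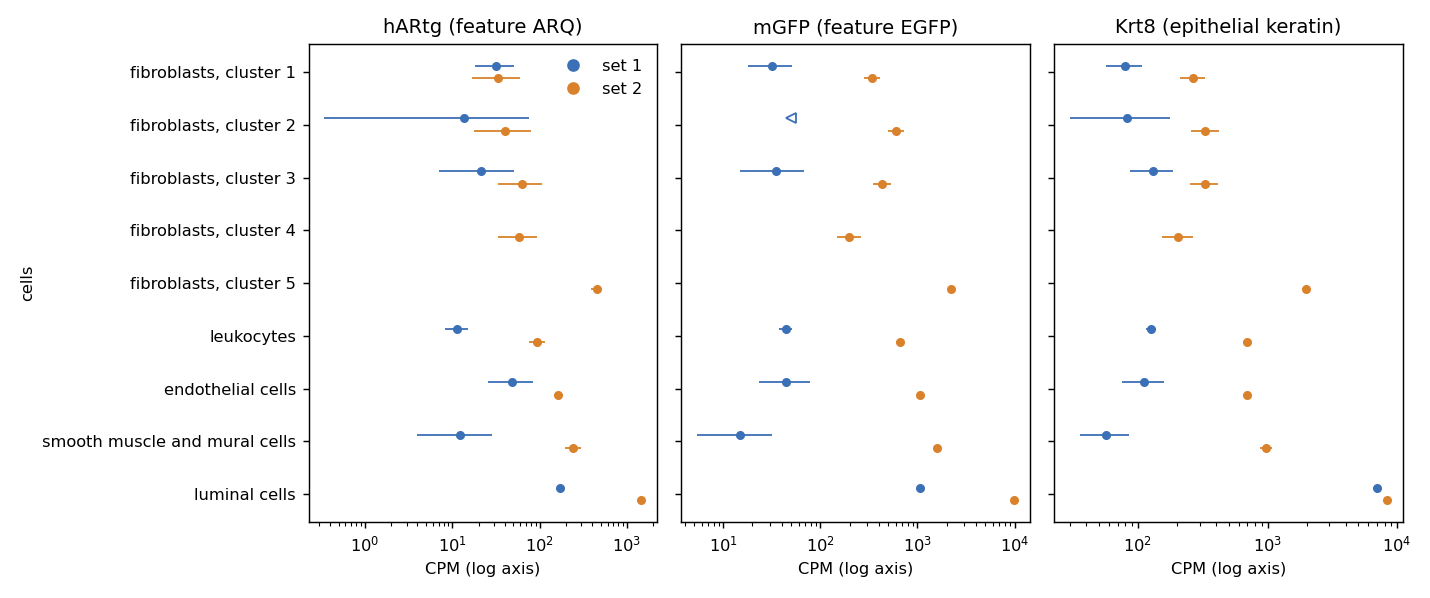
Points give the CPM (log axis) of hARtg, mGFP and Krt8 in the 5 fibroblast clusters and in leukocytes, endothelial cells, smooth muscle and mural cells and luminal cells, by barcode set, with exact Poisson 95% intervals; the open triangle is the upper bound for cluster 2 of set 1, which held 0 mGFP UMIs. Clusters 1 to 4 lie at or below the leukocytes of their set for mGFP, and cluster 5 lies between leukocytes and luminal cells for all 3 genes.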

How the data were processed

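Both samples were deposited as 1 table, in which the authors gave natural log values, ln(1 + UMIs per 10000 UMIs of the cell), for 19320 features. Per the study's methods, reads were counted by Cell Ranger 3.1.0 on mm10 with hARtg and mGFP sequences added, and the authors filtered out droplets without a cell, multiplets and cells with much mitochondrial RNA before deposit. The values were turned back into UMIs: all of the 56988269 values above 0 were whole UMIs within a relative tolerance of 0.001. A total of 4 feature rows with dates in place of gene names were not interpreted. No cell was assigned to PIN or PCa, since no label does so, and a match between cell numbers and barcode counts was not used for this.

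The UMIs of each gene were added up within a set or cluster and scaled to 1000000 (CPM). CPM have exact Poisson intervals, ratios of CPM conditional binomial intervals and shares Clopper-Pearson intervals, all at 95%. With 1 library per set no test of a difference was possible and no p-value was computed. Genes were compared by log2 ratios with 10 CPM added, at a mean of 50 CPM or more. To compare shares of cells with a UMI, cells were thinned to 3000 UMIs, which left out 9 fibroblasts of set 1 and 43 of set 2. Comparison cells were leukocytes (724 and 134), luminal cells (3144 and 6392), endothelial cells (37 and 145) and smooth muscle and mural cells (40 and 40), chosen by marker rules like that for fibroblasts. Of the smooth muscle and mural cells, 32 and 28 also passed for 3 matrix genes. Clusters came from 1500 variable features centred within each set, 15 principal components, 15 neighbours and the Leiden method at resolution 0.5 (scanpy 1.11.5, igraph 0.11.9). Scrublet, at its automatic limit, called 0 doublets in either set, so it did not work as a caller, and no cell was removed. A score of 0.25 or more was reached by 150 cells of set 1 and 183 of set 2. Python 3.11.15 with numpy 2.4.6, scipy 1.17.1 and matplotlib 3.10.9 was used, and the steps were tested on simulated data.

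The rule for members, the gene lists and the marker lists were chosen with earlier results of these data known. Named genes were the members of these lists, the 6 highest and 6 lowest ratios among all genes, the 12 highest and 12 lowest among fibroblast-enriched genes, the 15 leading fibroblast genes and the 8 leading genes of each cluster. Alternatives in the rule, filter, added CPM, thinning depth and clustering were tried, and those that leave out clusters 4 or 5 or the cell with most UMIs of a gene were chosen after seeing the data. Some genes of the lists are not reported here.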

Additional observations from a re-analysis of the deposited data

Results flagged for a closer look

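Il6, which encodes an inflammatory cytokine, had opposite directions in the clusters. Its log2 ratio of CPM of set 2 to set 1 was -1.22 in cluster 1, at 107 CPM in set 1 and 45.8 CPM in set 2, and 1.13 in cluster 3, at 264 and 577 CPM. The difference between these ratios was not tested, since each set holds 1 library.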

How the results depend on the processing

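No paired analysis was possible because each set holds 1 library and the labels give no replicate numbers, and for the same reason no library could be left out. Of 136 alternative values of the main results, 112 moved by less than their counting interval or, for counts, by less than 1.5 times. The share of fibroblasts was 1.26% in set 1 and 1.76% in set 2 with 4 matrix genes required, 3.54% in set 2 with 2, 0.726% and 0.723% without cells that hold a UMI of Epcam, Krt5 or Krt8, and in set 2 2.20% without the pericyte-like cluster and 1.72% with clusters 1 to 3. The number of genes higher in set 2 was 55 with clusters 1 to 3, 265 at a mean of 20 CPM, 448 with no filter beyond more than 3 UMIs and 69 with 50 CPM added, and the number lower was 211 with no such filter and 74 with 50 CPM added. The thinned share of fibroblasts with hARtg in set 2 was 14.0% with 4 matrix genes, 6.90% without epithelial UMIs, 11.1% in clusters 1 to 3 and 34.3% at 6000 UMIs. That with mGFP was 5.56% in set 1 with 4 matrix genes, and in set 2 75.7% at 6000 UMIs and 77.4% unthinned. The matched share of cluster 1 in set 1 was 15.9% at resolution 1.0 and 0% without centring within sets, so cluster 1 depends on both choices, and that of cluster 3 at resolution 1.0 was 23.4% in set 1 and 13.5% in set 2. Of 406 alternative ratios of named genes, 3 turned the direction: Jchain was at -0.036 without cells that hold epithelial UMIs and at -0.42 without its highest cell, and Wisp2 at -0.76 in clusters 1 to 3. The causes of these shifts were not tested. Depth also limits the thinned shares, since 43 fibroblasts of set 2 were too shallow to thin.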
